A study of Mus musculus with 2 samples.

Results

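The numbered Zfp genes, which encode zinc finger proteins, were followed in dorsal striatum of mice that had self-administered cocaine. Members were all symbols made of Zfp and a number, without a letter suffix, whose raw counts summed over both libraries reached 100; Zfp503 was left out by the rule. This gave 221 members of the 336 such symbols in a table of 32531 symbols. Members were thus chosen by their summed count, so their being well detected is not a result. Just inside the floor lay Zfp963 and Zfp711, with 100 counts each, and Zfp428 with 102; just outside lay Zfp41 with 99 and Zfp128 and Zfp946 with 98 each. A further 104 symbols below the floor had a count in at least 1 library, and 10 were listed at 0 in both.

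Both libraries were RNA-seq of total tissue RNA, the input of a ribosome purification, from Drd1-TRAP mice of line CP73, in which cells that express the dopamine receptor Drd1 carry an EGFP-tagged ribosomal protein Rpl10a under a BAC transgene. The label for strain gives a mixed FVB/N and Swiss Webster origin, backcrossed to C57BL/6 over 9 or more generations. All animals had long-access intravenous cocaine; 1 library came from the escalating group and 1 from the nonescalating group, and both groups carried the transgene. The labels used here do not state age, sex, time of collection or how many animals made up a library. Reads assigned to genes numbered 9548358 for the escalating and 9376097 for the nonescalating group, and values given in pairs keep this order.

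Most Zfp proteins are transcription factors of the classical zinc finger class, in which each finger folds around a zinc ion held by a pair of cysteines and a pair of histidines, and arrays of fingers read DNA. Many carry a KRAB box at their start, which recruits the corepressor Trim28 and, through it, the histone methyltransferase Setdb1 and heterochromatin proteins. KRAB zinc finger genes lie in clusters that grew by tandem duplication, and their best known targets are retroelements and imprinted regions. A minority of genes with a Zfp name act in RNA processing, translation or protein ligation instead.

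Sequence around the start sites was taken from RefSeq (GRCm38.p6, the build known as mm10), with 250 bases before to 50 after each start; 180 of the 221 members had a window. Each window below is shown because of its place in the results: Zfp341 was among the members with the widest gap in the higher direction, Zfp94 and Zfp180 lie in the same gene cluster and differed in call, Zfp141 holds a pair of the motifs discussed here, and Zfp110, Zfp423 and Zfp365 were lower in the escalating library. They were chosen after their values were seen. Letters in capitals mark matches, on either strand, to CCGGAAG (ETS factors), AAGATGGCG (YY1) or GGGCGG (SP and KLF factors), or to the palindrome of NRF1, which Zfp141 holds. Of the RefSeq starts of Zfp423 the window of 1 is shown.
Zfp341, chr2:154613118-154613417, plus strand: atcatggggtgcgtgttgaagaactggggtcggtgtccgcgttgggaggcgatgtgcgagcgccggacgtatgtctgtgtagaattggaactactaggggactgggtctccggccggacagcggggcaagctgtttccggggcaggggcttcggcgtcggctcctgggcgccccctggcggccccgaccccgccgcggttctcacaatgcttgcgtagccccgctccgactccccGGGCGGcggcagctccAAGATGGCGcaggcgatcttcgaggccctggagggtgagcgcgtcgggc
Zfp94, chr7:24316617-24316916, minus strand: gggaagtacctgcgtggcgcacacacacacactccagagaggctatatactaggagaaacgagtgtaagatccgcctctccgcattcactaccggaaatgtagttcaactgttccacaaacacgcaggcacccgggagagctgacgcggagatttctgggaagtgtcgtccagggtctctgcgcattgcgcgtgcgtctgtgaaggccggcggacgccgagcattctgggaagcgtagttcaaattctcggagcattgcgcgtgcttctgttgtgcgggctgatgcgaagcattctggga
Zfp180, chr7:24081647-24081946, plus strand: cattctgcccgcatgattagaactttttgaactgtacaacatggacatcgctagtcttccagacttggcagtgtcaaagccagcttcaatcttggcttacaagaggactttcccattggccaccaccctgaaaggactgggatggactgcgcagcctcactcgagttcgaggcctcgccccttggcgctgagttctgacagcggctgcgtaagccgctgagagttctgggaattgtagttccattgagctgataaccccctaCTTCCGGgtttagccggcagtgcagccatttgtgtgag
Zfp141, chr7:42505704-42506003, minus strand: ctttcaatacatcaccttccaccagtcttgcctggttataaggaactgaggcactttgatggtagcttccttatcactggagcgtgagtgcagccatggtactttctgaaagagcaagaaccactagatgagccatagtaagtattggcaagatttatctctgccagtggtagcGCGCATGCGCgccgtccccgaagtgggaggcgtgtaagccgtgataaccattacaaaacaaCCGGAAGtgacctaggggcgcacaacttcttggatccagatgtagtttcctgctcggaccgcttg
Zfp110, chr7:12834511-12834810, plus strand: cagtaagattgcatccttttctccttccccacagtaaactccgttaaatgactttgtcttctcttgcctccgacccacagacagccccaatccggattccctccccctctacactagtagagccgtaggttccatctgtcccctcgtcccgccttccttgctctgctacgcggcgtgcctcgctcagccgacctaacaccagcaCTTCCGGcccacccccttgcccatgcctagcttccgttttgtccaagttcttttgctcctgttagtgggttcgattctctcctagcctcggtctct
Zfp423, chr8:87959546-87959845, minus strand: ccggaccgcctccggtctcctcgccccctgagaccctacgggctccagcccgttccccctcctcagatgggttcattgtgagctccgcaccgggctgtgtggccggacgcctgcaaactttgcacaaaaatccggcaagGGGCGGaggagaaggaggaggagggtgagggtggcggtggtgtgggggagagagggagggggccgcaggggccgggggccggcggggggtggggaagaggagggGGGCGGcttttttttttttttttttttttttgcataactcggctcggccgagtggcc
Zfp365, chr10:67912613-67912912, minus strand: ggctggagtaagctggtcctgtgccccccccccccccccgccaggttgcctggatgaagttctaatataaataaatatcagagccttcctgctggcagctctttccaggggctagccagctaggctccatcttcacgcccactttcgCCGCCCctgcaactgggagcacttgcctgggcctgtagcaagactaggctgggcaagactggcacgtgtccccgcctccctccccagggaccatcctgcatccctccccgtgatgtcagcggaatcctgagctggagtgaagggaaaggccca

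Windows of members held the ETS letters in 39 of 180 genes (21.7%), beside 12.9% of 17492 protein-coding genes with a window. The sets are unlike: members had passed the floor on summed counts, while these protein-coding genes were taken at any count. Only 10012 protein-coding genes passed that floor. Whether the differences in share given here belong to Zfp genes or to the choice by count was not tested. The NRF1 letters stood in 4.44% of members and 1.47% of protein-coding genes, and the YY1 letters in 5.56% and 2.14%. The SP and KLF letters were about as frequent in members (50%) as in protein-coding genes (49.2%). The shares with the ETS letters were 24.2% of 91 members with a KRAB box and 19.3% of 88 without, and the SP and KLF letters stood in 38.5% and 61.4%. KRAB members had a median of 11 CG dinucleotides per window and members without KRAB 21.5. Members without KRAB also varied among themselves: of the windows above, that of Zfp341 has 34 and that of Zfp365 has 8. No KRAB box was found in either gene. E-box (CACGTG), AP-1 (TGANTCA), CRE (TGACGTCA), TCTCGCGA and glucocorticoid receptor element letters stood in 5.0%, 6.11%, 2.78%, 2.22% and 1.11% of member windows, and in 8.91%, 8.12%, 2.54%, 1.59% and 1.03% of those of protein-coding genes. No motif contains another, though matches may share bases, and a gene with several windows counted once per motif. These matches describe letters and no bound site.

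The question of the comparison was which Zfp transcripts differ between mice that escalated their cocaine intake and mice that did not. Of 221 members, 22 were higher in the escalating library, a share (9.95%) near the 8.65% of all tested genes, and 8 were lower, a share (3.62%) below the 15.9% of all tested genes. The widest differences were 2.13-fold higher and 2.55-fold lower. The 8 lower members include Zfp365, by far the most expressed member per kilobase, and the related factors Zfp423 and Zfp521. With 1 library per group no test between the groups can be made, and no p-value is given. A ratio is escalating over nonescalating CPM values (counts scaled to library size) after TMM scaling, and a gene was called when it differed by at least 1.5-fold and an exact 95% interval (Clopper-Pearson, from how its reads split between libraries) excluded 1. Folds are of scaled values and so differ from the ratio of the raw reads printed beside them. The interval covers counting error only, and each value compares these libraries rather than the conditions.

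The tested genes are the 10476 with the same floor of 100 counts. The quartiles of the log2 ratio were -0.12 and 0.35 over members, and -0.36 and 0.30 over all tested genes. The median log2 ratio was 0.15 over members and 0.03 over all tested genes. The gap of 0.12 between these medians is the same under any scaling, since a scaling adds 1 constant to every log2 ratio, but signs and calls can change. Under scaling by total assigned reads, which moves each log2 ratio up by 0.36, 88 members were higher and 3 lower, beside 32.1% and 8.29% of all tested genes. A member with a ratio between -0.36 and 0 is thus above 0 with that scaling, and scaling to neuron markers, which takes 0.25 from each ratio, turns small positive ratios negative.

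Members had fewer reads than genes at large, with a median summed count of 310 against 515, so the shares were also read within bands of summed count. From 100 to under 300 counts, 15 of 107 members were higher and 4 lower, beside 487 and 652 of 3482 tested genes. From 300 to under 1000, 5 of 88 members were higher and 3 lower, beside 263 and 574 of 3796. At 1000 or more, 2 of 26 members were higher and 1 lower, beside 156 and 438 of 3198. In every band the members' share called lower was below that of all genes in it.

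**Figure D1:**
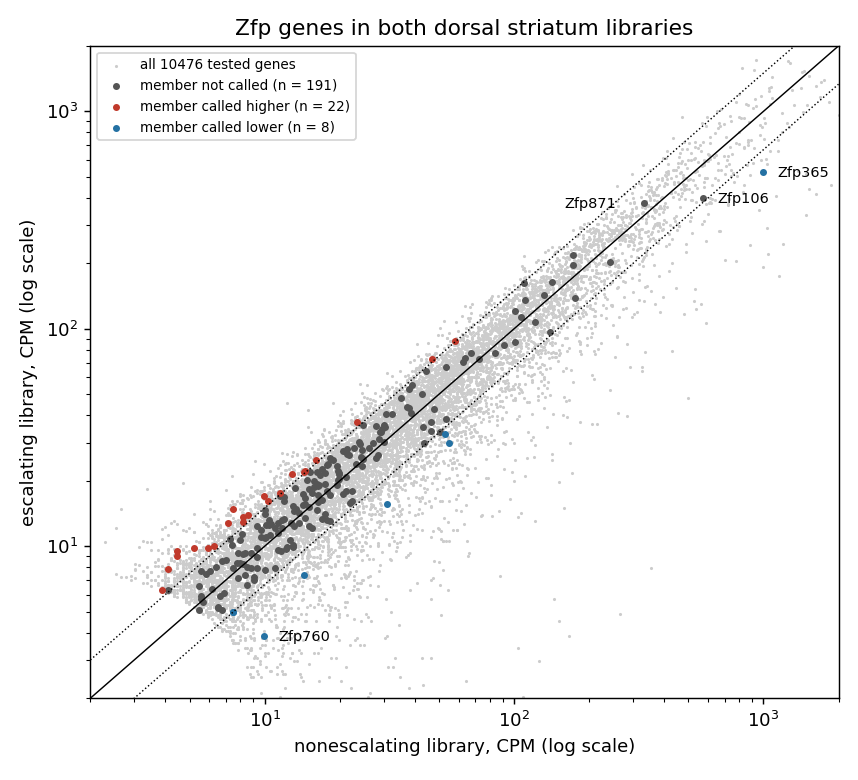
Level of each gene in the nonescalating (x axis) and escalating library (y axis), in CPM on log scales; grey points are all tested genes within the axes, coloured points are the 221 members, the solid line marks equal levels and the dotted lines 1.5-fold. Members follow the diagonal, and Zfp365, at 528 and 993 CPM, lies below it at the top of their range.

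**Figure D2:**
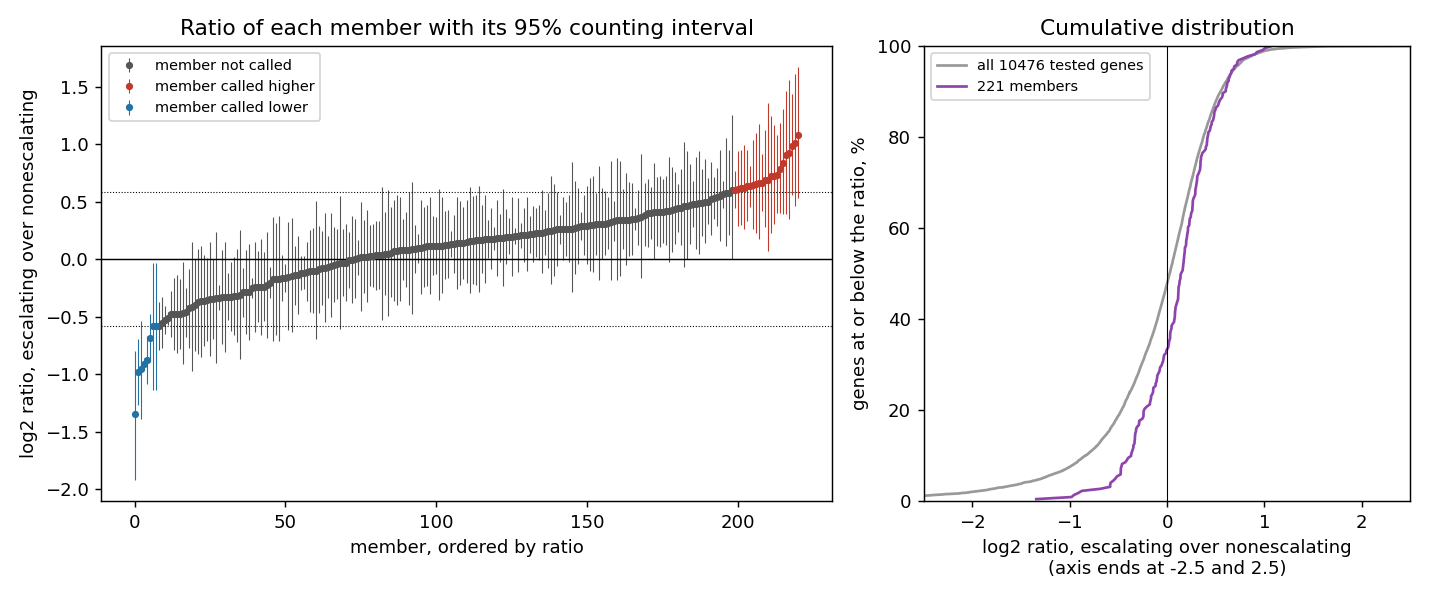
Left, log2 ratio (y axis) of each of 221 members in order (x axis), with bars for the 95% counting interval and dotted lines at 1.5-fold; right, the percentage of genes (y axis) at or below each log2 ratio (x axis) for members and all tested genes. The grey curve of all genes has a long lower tail that the members lack: no member differed by 4-fold.

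Markers of other cell types also differed. In the escalating library all 11 measured microglia markers were lower, at a summed level of 34.9 CPM against 1552 over the 12 listed genes and Trem2 at 0 counts. All 10 astrocyte markers were lower as well (summed 1882 against 14766 CPM), and so were 6 of 8 mature oligodendrocyte markers (1437 against 3785 CPM; Mag and Cnp were uncalled) and 4 of 4 measured endothelial markers (55.8 against 120.0 CPM over the 6 listed). Of 5 markers of oligodendrocyte precursors 1, Pdgfra, was lower and 4 were uncalled, with a median log2 ratio of -0.18 and summed levels of 121 and 164 CPM. Markers of striatal projection neurons, none of the 11 at 0 in either library, summed to 5796 and 5340 CPM, and of neurons in general to 6212 and 5232 CPM. Their part in the ratios of Zfp genes was not tested. In tissue RNA, fewer cells of a type and less RNA per cell cannot be told apart. With 1 library per group, a difference in how tissue or library was prepared cannot be told apart from these either.

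Levels per kilobase of exon ranked the members. Zfp365 (chromosome 10, 67886103 to 67912662), whose product is known as a binding partner of the scaffold protein Disc1, stood first with 101 and 191 CPM per kilobase. Zfp106, an RNA-binding protein gene, followed with 38.3 and 54.8, Zfp871 with 34.2 and 29.8, and Zfp207, which encodes a spindle protein that binds Bub3, came next by the mean of both libraries, with 2118 and 1431 counts. The median member had 3.53 and 3.12 CPM per kilobase, so Zfp365 was far above the rest. In the 12 highest members by this measure, Zfp365 was the only one called, and it was lower; Zfp445 missed 1.5-fold narrowly, at 1.48-fold higher (1.36 to 1.60).

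Zfp365 gave 5712 reads in the escalating library against 8214 in the other, 1.88-fold lower (interval 1.82 to 1.95). Its interval is the narrowest of the called members, since it holds the most reads. With total-read scaling its log2 ratio of -0.91 became -0.55, and it was no longer called.

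Zfp423 and Zfp521 encode related proteins that bind Ebf transcription factors and act in neural progenitors and cerebellar development; the finger pattern was found 27 times in each. Zfp423 (chromosome 8, 87661810 to 87959595) gave 170 reads against 257, 1.98-fold lower in the escalating library (1.62 to 2.41). Zfp521 (chromosome 18, 13687013 to 13972787) gave 324 reads against 455, 1.84-fold lower (1.59 to 2.12). The pair thus had ratios that lie within each other's intervals. No 50-base stretch of either representative transcript was found in another gene.

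The paralogs Zfp110 and Zfp369, which encode proteins that bind the neurotrophin receptor Ngfr, went apart. Zfp110 (chromosome 7, 12834761 to 12850577) gave 80 reads against 119, 1.95-fold lower (1.45 to 2.62). Zfp369 (chromosome 13, 65278814 to 65304221) gave 598 reads against 323, 1.42-fold higher (1.23 to 1.63), short of the 1.5-fold call. Their intervals do not overlap, and 98.5% and 98.2% of the 50-base stretches of their transcripts were unique among annotated transcripts. Zfp608 and Zfp609, another related pair, also had ratios of opposite sign under TMM scaling, though not with neuron-marker scaling, where Zfp609 was at -0.04: Zfp608 gave 322 reads against 361, for a log2 ratio of -0.55 (-0.77 to -0.33), while Zfp609, whose product binds the cohesin loader Nipbl, gave 1780 reads against 1180, for a log2 ratio of 0.21 (0.10 to 0.31). Neither reached 1.5-fold. The GC-rich DNA binding pair Zfp148 and Zfp281 had log2 ratios of 0.13 and 0.48, both uncalled.

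The widest difference in the lower direction was that of Zfp760, a KRAB gene on chromosome 17 (21707741 to 21725636) with 42 and 82 counts, 2.55-fold lower (1.74 to 3.80). Zfp91, which encodes a ubiquitin ligase of noncanonical NF-kappaB signalling, gave 357 reads against 439, 1.61-fold lower (1.40 to 1.85); its exons overlap Cntf on the same strand. Zfp488, a cofactor of oligodendrocyte differentiation, gave 54 reads against 62, a log2 ratio of -0.58 (-1.14 to -0.04). Zfp438 had the same counts. Zfp488 was lower beside the mature oligodendrocyte markers given above; that relation was not tested. Zfp110, Zfp423 and Zfp760 were the members still called lower with total-read scaling.

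In the higher direction Zfp599, a KRAB gene on chromosome 9 (22247430 to 22259895), gave 103 reads against 37, 2.13-fold higher (1.45 to 3.19). Zfp956 gave 98 reads against 37, 2.03-fold higher (1.37 to 3.04), but its exons overlap Zfp783 on the same strand. Zfp341 (chromosome 2, 154613297 to 154646821), whose human counterpart activates transcription of STAT3, gave 161 reads against 62, 1.99-fold higher (1.47 to 2.71). Its exons overlap 4930519P11Rik and Gm14198 on the opposite strand, and 92.4% of its 50-base stretches were unique. Zfp599, Zfp956 and Zfp341 have few reads in the nonescalating library, and their intervals are wide. Among members with more reads, Zfp831 gave 950 reads against 478, 1.52-fold higher (log2 ratio 0.60, 0.44 to 0.77), and Zfp46 gave 789 reads against 389, 1.55-fold higher (1.37 to 1.76). Zfp511 was 1.88-fold higher (1.31 to 2.75) and Zfp623 1.79-fold (1.31 to 2.47); Zfp511 overlaps Tubgcp2 on the opposite strand. Zfp239 fell short of the call at 1.44-fold higher (1.27 to 1.64), and was not called. Of the 22 higher members, 9 share exon sequence with another annotated gene. The labels do not state whether counting used strand, so how reads of such pairs were counted is not known. Reads in more than 1 gene stayed out of the counts, and their share was unequal, at 8.06% against 18.9% of reads. Of 68 members with an exon overlap 9 were higher and 1 lower (median log2 ratio 0.16). Of the 153 without, 13 were higher and 7 lower (median 0.14). Beside these, 8.65% of all tested genes were higher and 15.9% lower. Exon overlaps were sought only for Zfp symbols, so no such split exists for all genes. The part of the unequal share in the higher calls was not tested. No higher member had an interval that lay wholly beyond 1.5-fold, and 4 of the lower ones did. The shares of all tested genes under this stricter rule were not computed, so these counts have no background beside them.

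**Figure D3:**
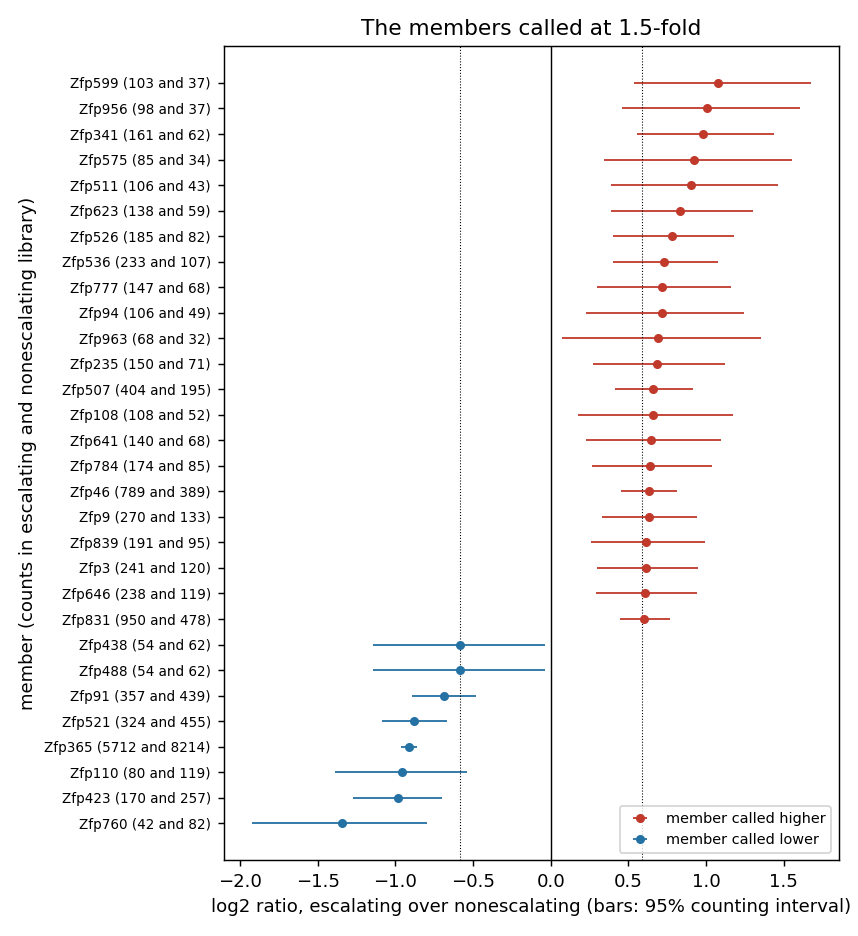
Log2 ratio (x axis) of the 30 called members (y axis, with their counts in the escalating and nonescalating library), with bars for the 95% counting interval and dotted lines at 1.5-fold. Zfp365 has the shortest bar, and the bars of Zfp963, Zfp488 and Zfp438 end close to 0.

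By role, the neural and glial development list, which takes in genes of neurodevelopmental disease, had 20 of 24 listed genes among the members: 2 were higher, 5 lower and 13 uncalled, with a median log2 ratio of -0.18. Beside this, 8.65% of all tested genes were higher and 15.9% lower. Total-read scaling adds 0.36 to each of these ratios, which turns the sign of that median. The 5 lower members were Zfp110, Zfp365, Zfp423, Zfp521 and, just at the threshold, Zfp488, and the 2 higher were Zfp536 and Zfp507. Zfp536, a repressor of neuronal differentiation, gave 233 reads against 107, 1.67-fold higher (1.32 to 2.11). Zfp507 gave 404 reads against 195, 1.58-fold higher (1.33 to 1.89), and it overlaps Gm26790 and E130304I02Rik on the opposite strand. Uncalled members of the list included Zfp462, a gene of human developmental delay with 2372 and 1425 counts (log2 ratio 0.35, 0.25 to 0.44), and Zfp292 with 1227 and 880 counts (0.09, -0.03 to 0.22). Other uncalled members lay below 0, such as Zfp335 (-0.33, -0.62 to -0.03) and Zfp608, given above. Over the 20 members of the list, called or not, 9 ratios were above 0 and 11 below. Zfp191, the older symbol of Zfp24, a gene needed for myelination, gave 188 reads against 170, for a log2 ratio of -0.24; it was picked out after its values were seen, because the list holds its current symbol. Zfp219 and Zfp618 of the list were below the floor.

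Of 11 listed genes that act on RNA, translation or the nuclear matrix, 8 were members and none was called (median 0.19). Zfp346, which binds double-stranded RNA, gave 391 reads against 206 and the highest log2 ratio of them, 0.54 (0.29 to 0.79). Zfp622, a ribosome maturation factor, had 298 and 171 counts (0.41, 0.14 to 0.69), and Zfp598, a ubiquitin ligase that acts on collided ribosomes, 205 and 136 counts (0.20, -0.11 to 0.53). Zfp106 was the lowest at -0.52 (-0.58 to -0.46), with 4324 and 4728 counts; 74.8% of its 50-base stretches were unique, and the antisense gene Gm26899 shares the most of the others. Zfp36, which encodes the mRNA decay factor tristetraprolin, fell below the floor with 32 and 48 counts. Of the ubiquitin and SUMO ligases, Zfp91 was lower and Zfp451, a SUMO ligase with 466 and 314 counts, had a log2 ratio of 0.18 (-0.03 to 0.39).

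Of 6 KRAB genes known for control of imprints or retroelements, 3 were members and none was called. Zfp445, which protects imprinted regions, gave 1754 reads against 907, for a log2 ratio of 0.56 (0.45 to 0.68). Zfp809, which silences retroviral DNA, gave 171 reads against 182, for a ratio of -0.48 (-0.79 to -0.17). Zfp932 gave 125 reads against 94, for a ratio of 0.02 (-0.37 to 0.43); 44.5% of its 50-base stretches were unique, and Gm15446 shares the most of the others, so its count is uncertain. With total-read scaling Zfp445 was 0.92 and Zfp809 -0.12. Zfp57, Zfp568 and Zfp708 were below the floor.

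The machinery that KRAB proteins recruit was followed as well. Of 35 genes at or above the floor among 40 listed, Cbx1, a heterochromatin protein gene with 79 and 39 counts, was the only one higher (1.55-fold, 1.04 to 2.34) and none was lower, with a median of 0.09. Of all tested genes, 8.65% were higher and 15.9% lower. Trim28 gave 700 reads against 437, for a log2 ratio of 0.29 (0.12 to 0.47), Setdb1 had 419 and 300 (0.09, -0.12 to 0.31), and Atf7ip, the partner of Setdb1, had 2048 and 1183 (0.40, 0.30 to 0.51). None of these 3 reached 1.5-fold. Of the 5 listed genes below the floor, Uhrf1, which encodes a reader of hemimethylated DNA, gave 1 read against 24, 31.4-fold lower (5.12 to 1291).

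A KRAB box was found in the longest coding transcript of 105 members. A SCAN domain, which pairs such proteins with each other, was found without KRAB in 6, and neither in 109; the remaining member, Zfp939, has no annotated coding transcript. KRAB members were lower in level (median 13.5 and 13.2 CPM) than members with neither domain (22.0 and 19.5 CPM). Their median log2 ratios were 0.15 and 0.17. Of KRAB members 6 were higher (5.71%) and 2 lower (1.90%), and of members with neither 16 were higher (14.7%) and 6 lower (5.50%), beside 8.65% and 15.9% of all tested genes. The difference between the classes was not tested. The classes rest on sequence patterns that were not checked against annotated domains, so some KRAB boxes may have been missed. The medians of both classes turned negative when libraries were scaled to neuron markers.

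Finger number ran from 0 to 36, with a median of 10. Members with 1 to 4 fingers had a median ratio of 0.20 (n = 31), those with 5 to 9 had 0.11 (n = 59), those with 10 to 14 had 0.15 (n = 79) and those with 15 or more 0.18 (n = 46). The 5 members in which no finger was found had a median of -0.18, among them Zfp365. Across 220 members the ratio and the number of fingers had a Pearson's r of -0.03 and a Spearman's rho of 0.01, given as a description. The members with the most fingers were Zfp142 with 36, Zfp462 and Zfp619 with 33, Zfp236 with 30, and Zfp423, Zfp521 and Zfp646 with 27; of these 7, Zfp423 and Zfp521 were lower and Zfp646 was higher. Zfp619 had only 69 and 51 counts, while Zfp142 had 763 and 517 and Zfp236 had 943 and 832.

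Other families with zinc fingers were set beside the members. Zbtb genes, which join fingers to a BTB domain, had a median of 0.16 with 2 higher and 1 lower of 29, Zkscan genes 0.28 with 2 higher of 9, and Zscan genes 0.10 with none called of 7. The Klf factors had a median of -0.14 with 1 higher and 1 lower of 11. Zfp symbols with letters after the number, outside the rule, had a median of -0.03 with 3 lower and none higher of 18. The RNA-binding Zc3h genes had 0.20 with 1 lower of 11, and the Zdhhc genes, palmitoyltransferases in the membrane whose fingers bind no DNA, had -0.32 with 1 higher and 2 lower of 17. These are descriptions of small groups, beside 8.65% higher and 15.9% lower of all tested genes. The negative medians among them are smaller in size than the 0.36 that total-read scaling adds.

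**Figure D4:**
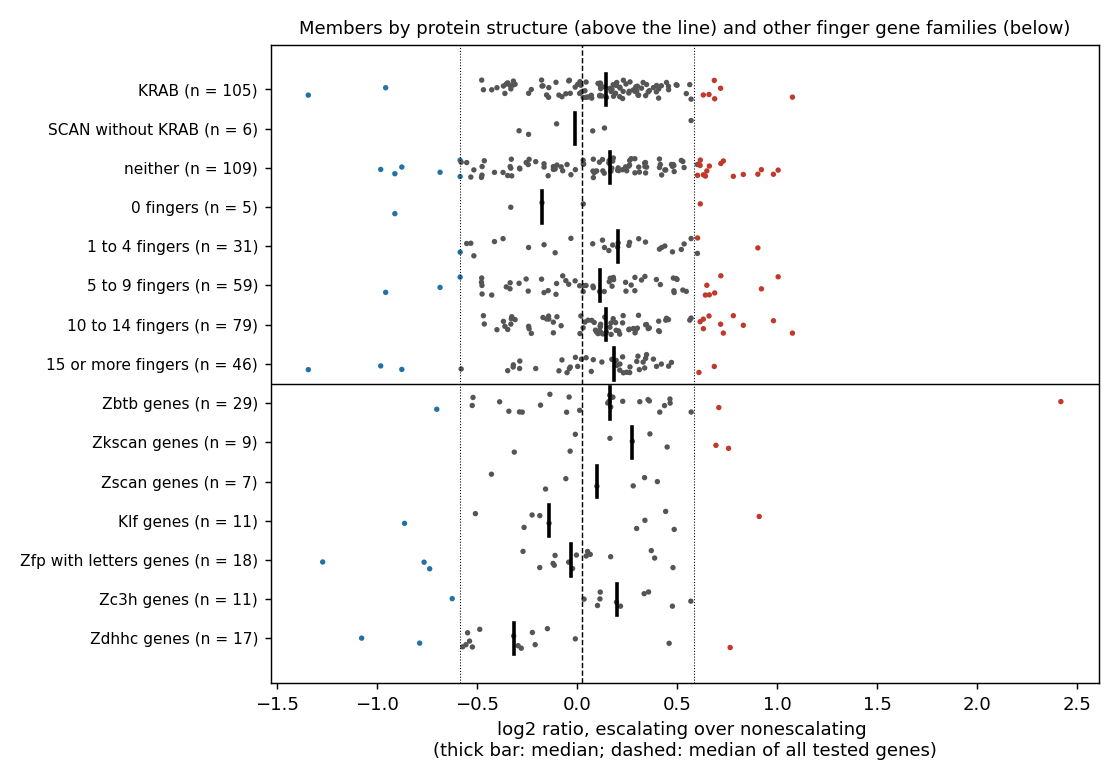
Log2 ratio (x axis) of members by protein domain and by number of fingers, and of other gene families, 1 row each (y axis), with red for genes called higher, blue for lower and grey for uncalled; thick bars are medians, the dashed line is the median of all tested genes and the dotted lines mark 1.5-fold. Medians of the member classes lie between 0.11 and 0.20 except for SCAN without KRAB (-0.01) and 0 fingers (-0.18).

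Members were unevenly spread over the genome. Chromosome 7 held 59 of them, with 10 higher, 1 lower and a median of 0.24, while of 660 other tested genes on that chromosome 11.5% were higher and 15.3% lower. Chromosomes 17 and 8 held 19 members each, with 1 higher and 2 lower in all. Neighbours less than 500 kb apart formed 17 clusters of 3 or more, which held 96 members. Clustered members had 11 higher (11.5%) and 2 lower (2.08%), with a median of 0.14. The 125 others had 11 higher (8.8%) and 6 lower (4.8%), with a median of 0.16. Over all tested genes the shares were 8.65% higher and 15.9% lower.

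The largest cluster, on chromosome 7 from 24081924 to 25227507, held 13 members, 8 with a KRAB box. Of these, 5 were higher and none lower, beside 8.65% higher and 15.9% lower of all tested genes. The cluster's median of 0.47 was the highest of the 17 clusters. Zfp526 gave 185 reads against 82, 1.73-fold higher (1.32 to 2.27), Zfp575 had 85 and 34 (1.91-fold, 1.27 to 2.94), and Zfp94 had 106 and 49 (1.65-fold, 1.17 to 2.37). Zfp235 had 150 and 71 counts (1.62-fold, 1.21 to 2.17) and Zfp108 had 108 and 52 (1.59-fold, 1.13 to 2.26). The cluster was not uniform: Zfp180, with the most reads in it (835 and 693), had a log2 ratio of -0.12 (-0.27 to 0.03; 0.24 with total-read scaling), and Zfp111, with 275 and 232, had -0.14 (-0.40 to 0.12). Of 11 other tested genes inside the same stretch 3 were higher and 1 lower, with a median of -0.12. Of the 50-base stretches of Zfp108, 88.1% were unique, and its neighbour Zfp93 shares the most of the others. This cluster was picked out after its values were seen.

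The next cluster on the same chromosome, from 29768552 to 30169750, held 11 members and none was called, with a median of 0.09. The 9 members on chromosome 17 from 32765496 to 33631779 were uncalled too (median 0.12), and they include Zfp871 with 4119 and 2744 counts (log2 ratio 0.20, 0.13 to 0.27). On chromosome 6, from 47835661 to 48445825, 2 of 7 members were higher: Zfp956, given above, and Zfp777 with 147 and 68 counts (log2 ratio 0.72, 0.30 to 1.16). Their neighbour Zfp746, which encodes a repressor that the ligase parkin degrades, gave 238 reads against 134, for a ratio of 0.44 (0.13 to 0.76) and was uncalled. The 3 members on chromosome 18 from 23954692 to 24020810 all had ratios below 0 under TMM scaling, with a median of -0.24, which total-read scaling turns positive.

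**Figure D5:**
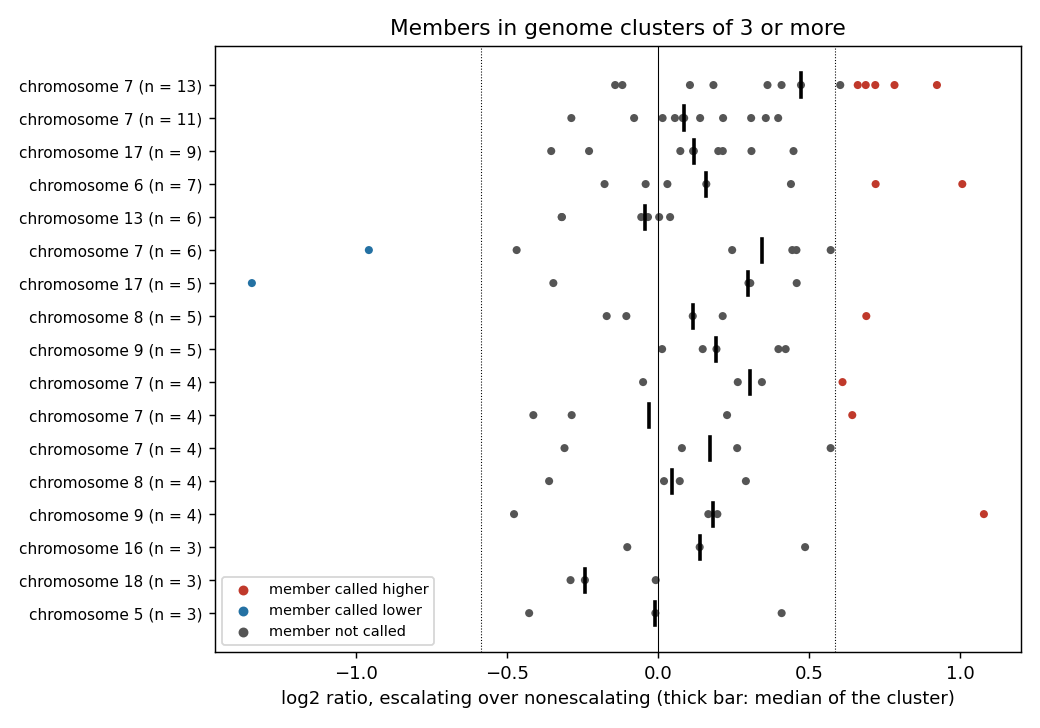
Log2 ratio (x axis) of each member in the 17 genome clusters of 3 or more, 1 row per cluster (y axis), with thick bars for the cluster medians and dotted lines at 1.5-fold. The 13-member cluster on chromosome 7 has its median at 0.47, and its 5 red points lie past the upper dotted line.

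Across the 221 members, which are not independent replicates, the ratio had a Pearson's r of -0.15 with exon length, 0.15 with the GC content of the transcript and -0.10 with log2 mean level. Over all tested genes the values were -0.00063, 0.07 and -0.01. Log2 levels of the members in the libraries had a Pearson's r of 0.956 and a Spearman's rho of 0.938. All points share the same pair of libraries. Of the members, 92 had transcripts in which every 50-base stretch was unique to the gene and 20 had less than 80% unique. Without those 20, 19 members were higher and 8 lower, at the same median of 0.15.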

How the data were processed

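Deposited values were raw read counts per gene symbol, 1 file per library; the submitters' processing notes name STAR 2.0.0e, HTSeq and mm10, and the authors deposited the counts without a stated strand setting or annotation. Reads listed under no gene (46.2% and 44.7% of reads, escalating first) stayed out of all totals; in both, reads in no annotated gene, in more than 1 gene or aligned to more than 1 place made up this share (28.6%, 8.06% and 9.53% against 18.1%, 18.9% and 7.78%). The symbol AK140265 alone held 9.66% and 24.1% of assigned reads.

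Each group came from its title. TMM factors (edgeR 4.0.16, R 4.3.3) were 1.13 and 0.882 and were computed on the whole table. Log2 ratios used a pseudocount of 0.5, and folds used none. No count test was run, since each group has 1 library. Intervals are exact Clopper-Pearson at 95% and cover counting error only; PCR copies make reads less than independent.

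GENCODE M21, on the build of mm10, gave position, exon length and transcripts; 220 members matched by symbol and 1 by a RefSeq synonym, and 220 are protein coding. No protein table was used here, so fingers, KRAB and SCAN were sought as sequence patterns in translations of the longest coding transcript. A 50-base stretch was unique if no transcript of another gene held it on either strand. Exon overlaps touched 68 members.

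Members, role lists, marker lists and the rule for named genes (level, interval bound, finger number, floor, role lists) were chosen with earlier results of these data known. On simulated counts with counting noise only, for this comparison of 10476 genes, 100% of genes set to differ by 2-fold were recovered, calls fell on 0.38% of unchanged ones, and the true ratio lay inside 95.6% of intervals. No smaller difference was simulated, so recovery between 1.5-fold and 2-fold, where most called members lie, is not known. The 0.38% leaves out differences between animals and in preparation. Other scalings were tried (size factors of DESeq2 1.42.0 among them), as were other floors, thresholds, pseudocounts and sets of members. Python 3.11.15, numpy 2.4.6, pandas 2.3.3, scipy 1.17.1, Biopython 1.88 and matplotlib 3.10.9 did the rest.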

Additional observations from a re-analysis of the deposited data

How the results depend on the processing

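Scaling moved the members most. With total assigned reads 88 were higher and 3 lower, beside 32.1% and 8.29% of all tested genes. The medians were then 0.51 for all members and for KRAB members and 0.52 for members without KRAB. Scaling to the summed counts of 6 neuron markers, a setting chosen after seeing the data, lowers each log2 ratio by 0.25. With it 6 members were higher (2.71%) and 27 lower (12.2%), beside 2.60% and 25.9% of all tested genes. The same medians were then -0.10, -0.10 and -0.088, and the median of all tested genes was -0.22. The median of all tested genes was also below 0, at -0.0033, with no filter on low counts. In the sum of neuron markers Snap25, itself called higher under TMM scaling, weighs most, with 40472 and 20576 counts. Under TMM scaling 4 of the 6 markers had ratios above 0 and 2 below. Of the 22 higher members 6 kept their call with neuron markers, and of the 8 lower ones 3 with total reads. DESeq2 size factors and TMM without AK140265 and Rn45s left 22 and 8; upper quartile factors gave 30 and 6.

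A floor of 50 gave 15 lower members and a floor of 200 gave 14 higher and 4 lower, as the sets differ in size. Without members whose exons overlap another gene, 13 of 153 were higher and 7 lower, beside 8.65% and 15.9% of all tested genes. At 2-fold 2 were higher and 1 lower, and with the whole interval past 1.5-fold 0 were higher and 4 lower. The shares of all tested genes at these thresholds were not computed. Depth limits the members near the floor, whose intervals are wide. Among the 57 named members, 10 changed sign with total reads (Zfp644 from -0.25 to 0.11) and 11 with neuron markers (Zfp142 from 0.17 to -0.07); all 21 were uncalled. No paired analysis was possible because each group has 1 library.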
